A study of Mus musculus with 4 samples.

Results

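The chromatin around 8 cytokine genes of the epidermis was examined by ATAC-seq in keratinocytes from imiquimod-treated mouse skin. The genes were Tslp, Il33, Il18, Il25, Il19, Il20, Il24 and Il23a. Peaks of the 4 libraries were merged into 82641 regions wherever they overlapped by at least 1 bp. The regions kept were those within 25 kb of a gene body on either side, with Il19, Il20 and Il24 taken as a single span because they are neighbours on chromosome 1. This gave 45 regions in 6 windows, by position alone.

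ATAC-seq maps open chromatin with the transposase Tn5, which cuts accessible DNA and inserts sequencing adapters. The 4 libraries comprised 2 of each genotype, wild type (WT) and Mapk8-KO, where Mapk8 is the gene of the kinase JNK1. Mice of both genotypes had received a cream with 5% imiquimod on the skin for 8 days, so there was no untreated group. The comparison asked how accessibility differs when JNK1 is missing from the epidermis. Per the study's methods, the mice were female C57BL/6 of 8 to 12 weeks, Mapk8 fl/fl animals had lost the gene through a Cre driven by the keratin 14 promoter, and EpCam+ CD49f-high cells were sorted from dissociated skin. The labels give the controls only as Wild Type and do not say whether they carried the floxed allele. The study states that ATAC-seq used 2 independent samples per group and that controls were littermates. Neither it nor the labels say whether a library came from 1 mouse or from a pool. The p values therefore measure the spread between these libraries, which may be partly technical.

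Keratinocytes are both a barrier and a source of cytokines that alert the immune system. TSLP, IL-33 and IL-25 are released by stressed epithelium and act on dendritic cells, innate lymphoid cells and T cells, while IL-18 is stored as a precursor that inflammasome caspases cleave. IL-19, IL-20 and IL-24 belong to the IL-10 family and signal back to keratinocytes through receptors that share IL-20 receptor chains, and the p19 chain encoded by Il23a pairs with the p40 chain of Il12b to form IL-23. JNK kinases phosphorylate c-Jun, a component of AP-1, so matches to the AP-1 motif are marked in the sequences given here.

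The sequences that follow are the 201 bases centred on the strongest summit of 10 regions, on the plus strand of the GRCm38 genome, the assembly that mm10 denotes. They comprise the promoter regions of Il24 and Il23a, the region 13.0 kb upstream of Il33 and the 3 regions called in WT alone. The other 4, at Il24, Il20 and Il18, had depth-scaled pileups (defined below) higher in both WT libraries than in both Mapk8-KO libraries. Capitals mark matches on either strand to AP-1 (TGAGTCA or TGACTCA), STAT (TTCNNNGAA), C/EBP (TTGCNNCAA) and the NF-kB consensus. Each name gives the distance of the summit from the 5′ end of the gene, and a minus sign means upstream of it.
Il24 +0.8 kb, chr1:130886542-130886742: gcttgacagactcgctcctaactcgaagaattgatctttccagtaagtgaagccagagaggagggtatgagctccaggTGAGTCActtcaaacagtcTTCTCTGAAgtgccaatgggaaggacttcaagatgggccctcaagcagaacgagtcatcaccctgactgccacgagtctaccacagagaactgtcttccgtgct
Il24 -5.1 kb, chr1:130892482-130892682: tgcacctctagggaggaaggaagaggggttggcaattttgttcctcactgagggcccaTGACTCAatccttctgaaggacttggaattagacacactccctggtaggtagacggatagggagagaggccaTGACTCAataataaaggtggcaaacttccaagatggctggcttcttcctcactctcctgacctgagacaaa
Il24 +7.3 kb, chr1:130880045-130880245: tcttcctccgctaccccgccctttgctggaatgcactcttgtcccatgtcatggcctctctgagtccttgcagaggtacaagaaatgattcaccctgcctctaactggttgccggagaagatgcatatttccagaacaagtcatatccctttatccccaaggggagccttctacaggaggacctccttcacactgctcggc
Il20 +8.8 kb, chr1:130902595-130902795: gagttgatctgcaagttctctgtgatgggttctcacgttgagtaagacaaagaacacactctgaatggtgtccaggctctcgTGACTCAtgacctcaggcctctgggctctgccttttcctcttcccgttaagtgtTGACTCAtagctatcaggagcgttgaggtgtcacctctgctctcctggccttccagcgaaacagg
Il19 -4.1 kb, chr1:130944094-130944294: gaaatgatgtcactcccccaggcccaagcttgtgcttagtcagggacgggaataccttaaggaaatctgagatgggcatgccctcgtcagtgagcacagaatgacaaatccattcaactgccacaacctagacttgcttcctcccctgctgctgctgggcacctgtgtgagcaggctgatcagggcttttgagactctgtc
Il33 -13.0 kb, chr19:29911991-29912191: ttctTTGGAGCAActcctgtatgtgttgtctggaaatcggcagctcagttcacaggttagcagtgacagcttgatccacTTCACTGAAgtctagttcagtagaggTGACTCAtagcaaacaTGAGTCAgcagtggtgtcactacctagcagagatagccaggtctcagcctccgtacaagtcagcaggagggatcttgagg
Il18 +15.5 kb, chr9:50570256-50570456: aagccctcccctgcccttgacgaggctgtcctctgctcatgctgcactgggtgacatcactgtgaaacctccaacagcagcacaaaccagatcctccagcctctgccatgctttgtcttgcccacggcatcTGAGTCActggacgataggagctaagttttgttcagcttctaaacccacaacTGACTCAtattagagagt
Il18 -11.1 kb, chr9:50543578-50543778: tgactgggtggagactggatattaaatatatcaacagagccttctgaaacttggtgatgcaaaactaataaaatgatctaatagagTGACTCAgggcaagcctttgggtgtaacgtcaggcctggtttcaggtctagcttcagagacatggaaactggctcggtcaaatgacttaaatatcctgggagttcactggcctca
Il18 +36.2 kb, chr9:50590937-50591137: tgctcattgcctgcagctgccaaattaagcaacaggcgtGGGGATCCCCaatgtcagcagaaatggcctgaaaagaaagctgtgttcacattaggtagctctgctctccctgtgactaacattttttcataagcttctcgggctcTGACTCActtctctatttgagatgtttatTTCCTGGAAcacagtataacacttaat
Il23a +0.6 kb, chr10:128298098-128298298: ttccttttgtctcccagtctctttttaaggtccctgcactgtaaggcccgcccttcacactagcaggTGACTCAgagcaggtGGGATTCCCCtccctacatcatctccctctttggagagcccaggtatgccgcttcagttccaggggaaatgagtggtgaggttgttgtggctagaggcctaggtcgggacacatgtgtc

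Among these 10 sequences, the regions 5.1 kb upstream of Il24, 8.8 kb downstream of the Il20 start, 13.0 kb upstream of Il33 and 15.5 kb into Il18 each held 2 AP-1 matches. The regions 7.3 kb from the Il24 start and 4.1 kb upstream of Il19 held none of the motifs searched. A match is a run of letters and not a measured binding site. The regions called in WT alone and those with higher WT pileups were picked by their values. The matches in these sequences therefore do not describe all regions at the genes.

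Accessibility is given on 3 scales. The pileup is the number of fragments over a summit, the fold enrichment is that pileup over the local background, and the percentile is the rank of the fold enrichment within the library's own peak list. The replicate 1 libraries were the deeper, at 1.0 for WT and 1.12 for Mapk8-KO relative to WT 1, against 0.694 and 0.646 for the replicate 2 libraries, and pileups divided by these factors are called depth-scaled. Where a value is given for each library, replicate 1 of a genotype comes before replicate 2.

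The libraries were checked by the promoters of marker genes. Those of 6 keratinocyte markers were called in every library except that of Krt5 in Mapk8-KO 2, and no promoter of 4 T cell and leukocyte, 5 Langerhans and myeloid or 3 mast cell markers was called in any library. Promoters of all 4 melanocyte markers were called in each library, at percentiles of up to 99.2, and those of some endothelial (1 or 2 of 3) and fibroblast (2 of 4) markers also were. The Krt14 promoter lay at percentiles of 29.8 and 9.9 in WT 1 and WT 2. In Mapk8-KO 1 and Mapk8-KO 2 it lay at 96.3 and 96.0. The study's Cre line is named with the symbol KRT14, and whether the transgene plays a part here was not tested. The Mapk8 promoter was called in all 4 libraries, with 96, 73, 109 and 90 fragments, and peak lists do not show whether an exon was deleted. The part of any of these values in the results that follow was not tested.

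The regions at the 8 genes were called in all 4 libraries about as often as other regions, at 22 of 45 (48.9%) against 48.6% of all merged regions. The WT libraries called 41 and 34 regions and the Mapk8-KO libraries 39 and 24. Mapk8-KO 2 called 53.3% of the cytokine regions, where it called 59.1% of all regions, and WT 2 of nearly the same depth called 75.6%, against 65.2%. Regions called in every library but Mapk8-KO 2 numbered 9 of 45, against 9.91% of all regions, and 5 of them lay in the Il18 window.

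3 regions were WT-specific, that is called in both WT libraries and in neither Mapk8-KO library (6.67%, against 2.17% of all regions), and none was Mapk8-KO-specific (against 1.65%). WT-specific regions lay 11.1 kb upstream of Il18, 36.2 kb downstream of its start and 4.1 kb upstream of Il19. Leaving out a library loosens this rule, so such counts cannot show whether the 3 depend on a single library. The WT-specific count was 12 without Mapk8-KO 1 and 5 without WT 2, and stayed at 3 without WT 1 or Mapk8-KO 2. When Mapk8-KO 2 was left out, 3 Mapk8-KO-specific regions appeared.

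**Figure D1:**
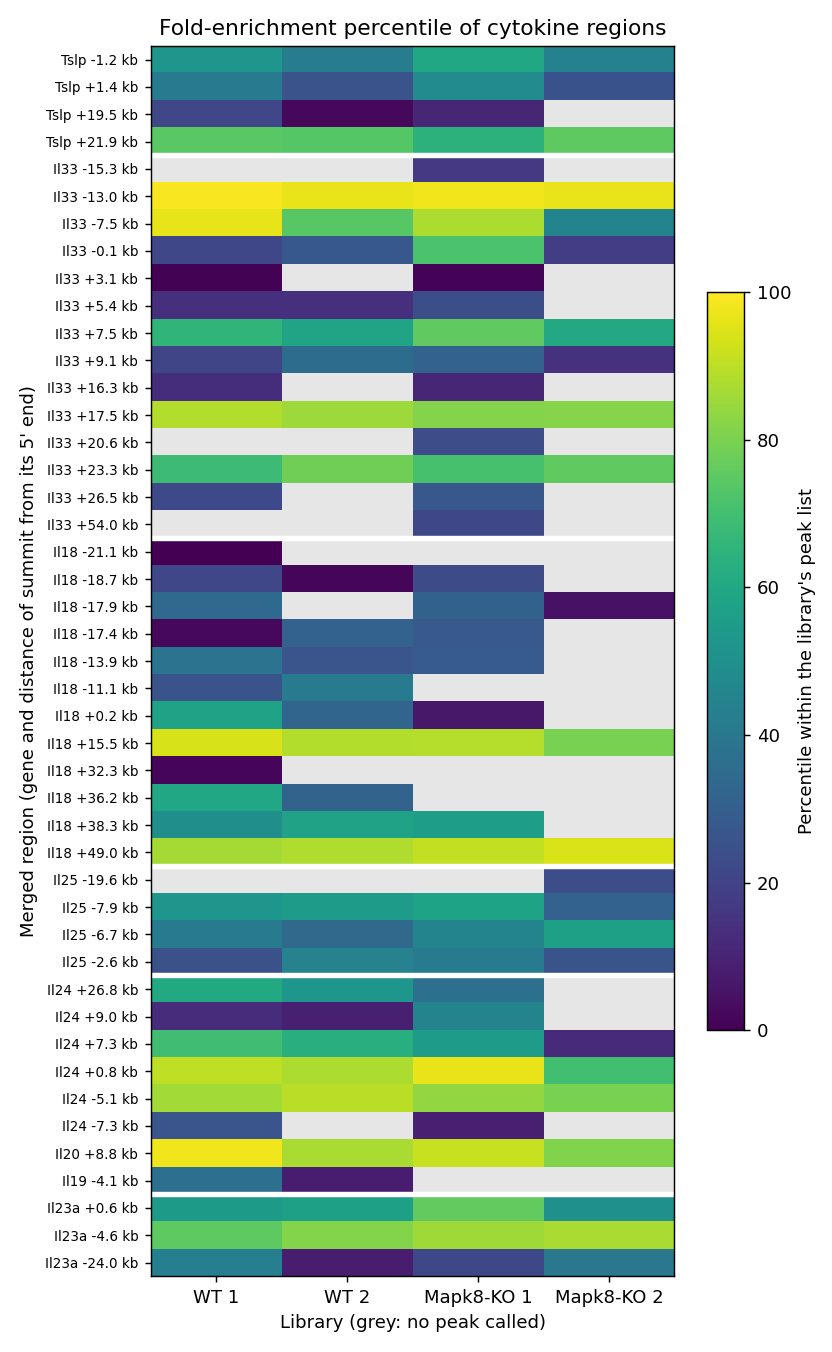
Percentile of fold enrichment within each library's peak list (colour, 0 to 100) for the 45 regions, ordered by gene and by position from its 5′ end in kb, with 1 column per library and grey where no peak was called. The region 13.0 kb upstream of Il33 has the highest percentile in every column, and the Mapk8-KO 2 column holds the most grey cells.

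Density differed between the windows. The Il33 window held 14 regions (16.4 per 100 kb, more than 97.5% of 21938 coding genes) and that of Il18 held 12 (15.6 per 100 kb, more than 96.9%). The Il19/Il20/Il24 window held 8 (7.4 per 100 kb), those of Tslp and Il25 held 4 each (7.35 and 7.53 per 100 kb) and that of Il23a held 3 (5.7 per 100 kb). The median coding gene had 4.96 per 100 kb. A member was the gene with the nearest transcription start site (TSS) for 13 of 14 regions at Il33 and 7 of 8 at the IL-20 cluster. This held for only 4 of 12 at Il18, 2 of 4 at Tslp and 1 each at Il25 and Il23a. For the others in those windows, neighbouring genes such as Gm47077, Sdhd, Wdr36, Efs and Pan2 were nearer.

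The IL-20 family genes lie head to tail on the minus strand of chromosome 1, Il24 from 130882074 to 130887454, Il20 from 130906985 to 130911451 and Il19 from 130932656 to 130940115. Of the 3, a called region lay within 2 kb of a TSS at Il24 alone, and none of the 6 annotated TSSs of Il19 and Il20 had one in any library. The 4 regions of the cluster called in all libraries all lay between 130879997 and 130902875, around Il24 and downstream of Il20.

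The Il24 promoter region, in an intron from 130886416 to 130886957, had the highest percentiles of any TSS region of the 8 genes. Its pileup was 56 and 41 fragments in the WT libraries and 74 and 23 in the Mapk8-KO libraries, and its percentiles were 90.5, 87.8, 96.6 and 69.6 in the same order. The Mapk8-KO libraries lay on either side of the WT pair, so the genotypes overlapped. Depth-scaled pileup was 57.5 ± 2.12 in WT and 51.0 ± 21.7 in Mapk8-KO (SD, n = 2 each). The log2 difference of WT minus Mapk8-KO was 0.20 ± 0.23 (SE, limma adjusted p = 0.801), and it ran from -0.26 without Mapk8-KO 2 to 0.64 without Mapk8-KO 1.

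The region 5.1 kb upstream of Il24, between genes from 130892331 to 130892879, had the highest pileup of the cluster in each library, with 115 and 74 fragments in the WT libraries and 98 and 50 in the Mapk8-KO libraries. On the depth-scaled measure both WT libraries (115 and 106.6) lay above both Mapk8-KO libraries (87.8 and 77.4). The log2 difference was 0.38 ± 0.19 (SE, limma unadjusted p = 0.0424, adjusted p = 0.423), and over the alternatives the adjusted p lay between 0.341 and 0.940.

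The region 8.8 kb downstream of the Il20 start, from 130902522 to 130902875, ranked highest in the cluster by its mean percentile. It had 64 and 40 fragments in the WT libraries and 52 and 31 in the Mapk8-KO libraries, with fold enrichments of 16.5, 12.4, 13.6 and 10.9. Its depth-scaled pileup of 60.8 ± 4.53 in WT lay above the 47.3 ± 0.990 in Mapk8-KO (SD, n = 2 each) without overlap, at a log2 difference of 0.31 ± 0.23 (SE, limma adjusted p = 0.639).

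The largest fitted difference of the cluster was 7.3 kb downstream of the Il24 start, in an intron of its neighbour Fcmr from 130879997 to 130880452. Pileups were 45 and 31 fragments in the WT pair and 40 and 13 in the Mapk8-KO pair. Depth scaling gave 45 and 44.6 in WT, close together, and 35.8 and 20.1 in Mapk8-KO, both lower and far apart. The log2 difference was 0.69 ± 0.28 (SE, limma unadjusted p = 0.0134, adjusted p = 0.286). Without Mapk8-KO 1, which leaves a single library of that genotype, the log2 difference was 1.10. Over the alternatives it ran from 0.27 to 1.10. No alternative with 2 libraries of each genotype passed the threshold of 0.05. This region was singled out after its values were seen, as was the one 5.1 kb upstream of Il24.

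The other regions of the cluster were weaker. At Il19, the WT-specific region from 130943903 to 130944451 had 18 fragments in WT 1 and 10 in WT 2, at fold enrichments of 6.07 and 4.34. Had it been as open in Mapk8-KO as in WT, 18.1 and 10.5 fragments would be expected in Mapk8-KO 1 and Mapk8-KO 2, where 10 and 8 were needed for a call. The expected numbers come from the libraries in which the region was called and are therefore on the high side. Regions 9.0 and 26.8 kb from the Il24 start were called in all libraries but Mapk8-KO 2, and one 7.3 kb upstream of Il24, with an AP-1 match, was called in both replicate 1 libraries alone at 50 and 33 fragments.

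**Figure D2:**
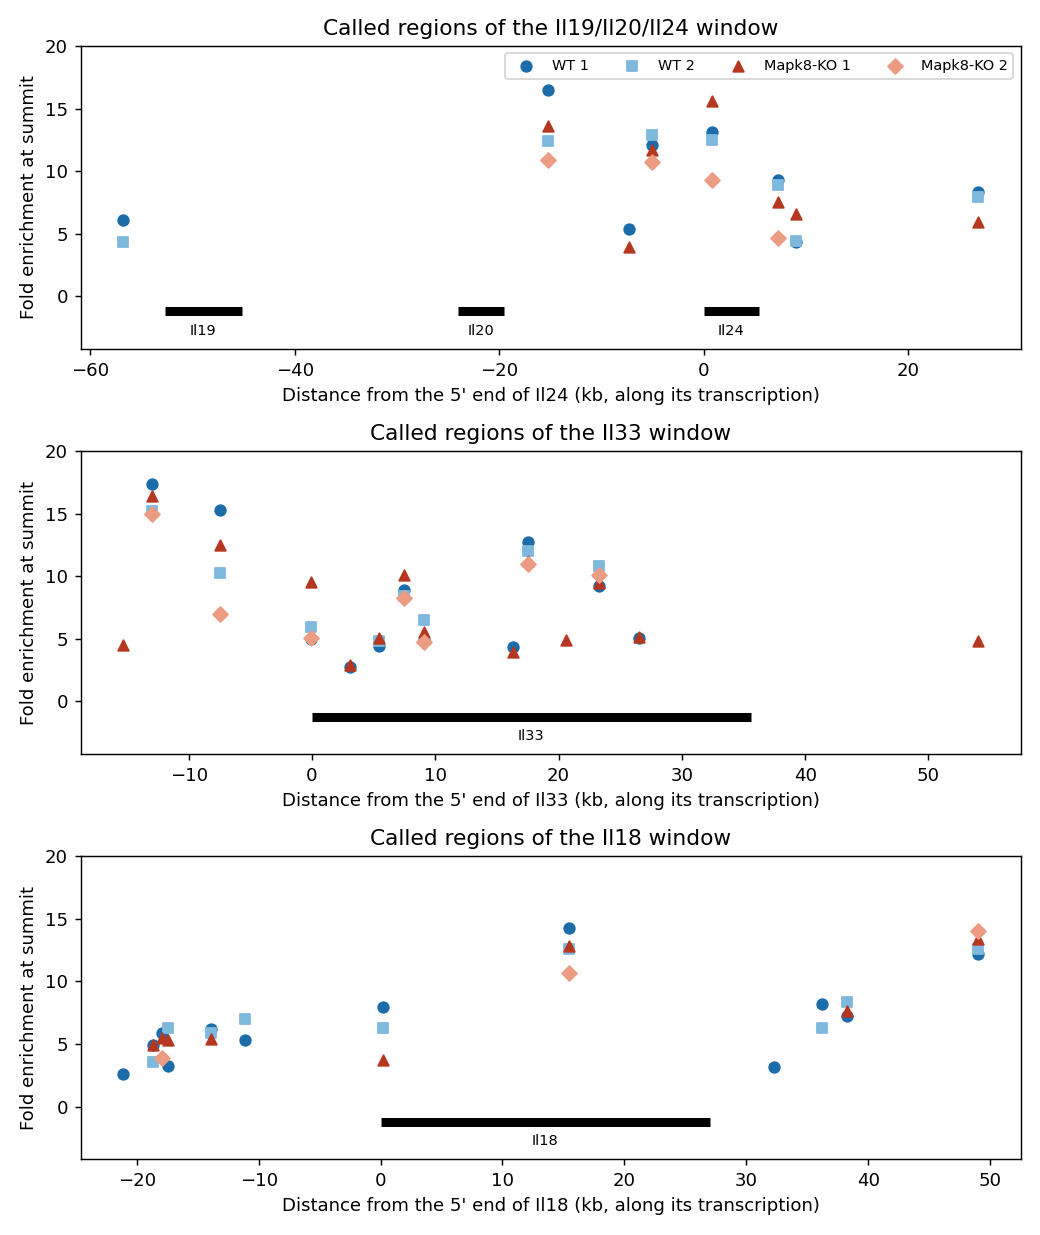
Fold enrichment at the summit of every called region of the Il19/Il20/Il24, Il33 and Il18 windows against distance in kb from the 5′ end of Il24, Il33 or Il18, along the direction of its transcription. Each point is a region in 1 library and black bars are gene bodies. The cluster's regions called in all libraries sit around Il24 and downstream of Il20. Their fold enrichments reach 16.5, at the region 8.8 kb downstream of the Il20 start. The open regions of Il33 spread from upstream through the gene body.

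Il33 encodes a nuclear cytokine of the IL-1 family that is freed from damaged cells, and lies on the plus strand of chromosome 19 from 29925114 to 29960718 with no other gene in its window. Its regions ran from 15.3 kb upstream to 54.0 kb downstream of its 5′ end, and 7 of 14 were called in all libraries. A further 3 regions were called in both replicate 1 libraries alone, and 3 in Mapk8-KO 1 alone. Over the 6 windows, 4 of 45 regions (8.89%, against 7.91% of all regions) were called in both replicate 1 libraries alone. Any 1 library alone called 6 of 45 (13.3%, against 21.7%).

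The region 13.0 kb upstream, from 29911916 to 29912382, had the highest fold enrichment of all 45 in each library. By pileup it was not the highest, with 100 and 64 fragments in the WT libraries and 107 and 50 in the Mapk8-KO libraries, at percentiles of 98.9, 96.6, 97.7 and 96.6. The genotypes overlapped, with depth-scaled pileups of 96.1 ± 5.52 in WT and 86.6 ± 13.0 in Mapk8-KO (SD, n = 2 each) and a log2 difference of 0.11 ± 0.19 (SE, limma adjusted p = 0.877). Further in, the region 17.5 kb into the gene, with matches to AP-1 and to the CREB/ATF palindrome TGACGTCA, had the highest pileups of the window, with 150 and 81 fragments in the WT libraries and 136 and 65 in the Mapk8-KO libraries. It gave a log2 difference of 0.21 ± 0.18 (SE, limma adjusted p = 0.702).

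Between the strong upstream region and the promoter, a narrower region 7.5 kb upstream, with 2 AP-1 matches, varied more within a genotype than between genotypes. Its percentiles were 96.2 and 74.2 in WT and 87.6 and 45.2 in Mapk8-KO, and its pileups 47 and 25 against 43 and 17 fragments. The replicate 1 library ranked higher in each genotype, and the log2 difference was 0.32 ± 0.27 (SE, limma adjusted p = 0.704). The regions 7.5, 9.1 and 23.3 kb into the gene held no match to the motifs searched. Their log2 differences were -0.17 ± 0.21, 0.09 ± 0.27 and -0.03 ± 0.19 (SE, limma adjusted p = 0.802, 0.941 and 0.973), so none differed by more than its error.

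The promoter region at the first Il33 TSS, from 29924842 to 29925174, was by contrast modest. Pileups were 15 and 14 fragments in the WT libraries and 40 and 12 in the Mapk8-KO libraries. Mapk8-KO 1 stood apart at the 71.7th percentile, and the other libraries lay at 21.3, 27.4 and 18.2. The log2 difference of -0.62 ± 0.32 (SE, limma unadjusted p = 0.0560, adjusted p = 0.461) was -0.15 without Mapk8-KO 1 and -1.09 without Mapk8-KO 2. Mapk8-KO 1 was also the only library with a peak at the second Il33 TSS, at 29945790, with 77 fragments. At the depth of the other libraries 69.0, 47.9 and 44.6 fragments would be expected there in WT 1, WT 2 and Mapk8-KO 2, where 29, 23 and 22 were needed for a call.

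Il18, another member of the IL-1 family, lies on the plus strand of chromosome 9 from 50554827 to 50581840, and its first TSS is close to that of Bco2, which is transcribed the other way and encodes a carotenoid-cleaving enzyme. It had the most uneven calls, with 12 and 9 of its 12 regions called in the WT libraries and 8 and 3 in the Mapk8-KO libraries. The region at the shared TSS, from 50554764 to 50555274, had 24, 15 and 12 fragments in WT 1, WT 2 and Mapk8-KO 1 and was not called in Mapk8-KO 2. Its percentiles of 57.8, 32.8 and 6.5 were higher in both WT libraries than in the Mapk8-KO library that called it. The main limma fit did not include it because it was not called in all libraries. In the fit without Mapk8-KO 2 its log2 difference was 1.03, which rests on a single Mapk8-KO library. It held an NF-kB match and no AP-1 match. No region was called within 2 kb of the 2 later Il18 TSSs, at 50565374 and 50575273.

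Upstream, in introns of Bco2, 4 regions between 50536001 and 50541038 made a loose group 18.7, 17.9, 17.4 and 13.9 kb before the Il18 start, with percentiles of at most 38.2. In WT 1 they had 32, 38, 21 and 41 fragments and in Mapk8-KO 1 they had 23, 26, 25 and 25. Each was called in WT 1 and Mapk8-KO 1, 3 of the 4 also in WT 2, and 1 in Mapk8-KO 2, at 10 fragments. WT 1 and Mapk8-KO 1 are the deeper libraries. At equal accessibility 16.0, 17.7 and 23.0 fragments would be expected in Mapk8-KO 2 at the regions it lacked, where 12 were needed. In WT 2, 17.8 would be expected at the region it lacked, where 11 were needed. These expected numbers are on the high side, as at Il19, and the part of depth in these calls was not tested. The 1 called in Mapk8-KO 2, 17.9 kb upstream, was the 1 with an AP-1 match.

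The strongest region within Il18, in an intron from 50569888 to 50570483, had 71 and 46 fragments in the WT libraries and 55 and 28 in the Mapk8-KO libraries. Depth-scaled pileup was 68.6 ± 3.39 in WT and 46.3 ± 4.24 in Mapk8-KO (SD, n = 2 each), with no overlap. The log2 difference was 0.52 ± 0.22 (SE, limma unadjusted p = 0.0203, adjusted p = 0.331), and the adjusted p lay between 0.152 and 0.903 over the alternatives. On the log2 fold enrichment the difference was 0.16, the smallest of the alternatives. This region, too, was singled out after its values were seen.

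Of the WT-specific regions of Il18, that 11.1 kb upstream, in an intron of Bco2 from 50543429 to 50543780, had 19 fragments in WT 1 and 22 in WT 2, at percentiles of 25.9 and 41.3. At equal accessibility 28.3 and 16.4 fragments would be expected in Mapk8-KO 1 and Mapk8-KO 2, where 12 and 9 were needed. The one 36.2 kb downstream of the Il18 start, between genes from 50590902 to 50591326 and nearest to Sdhd, had 34 fragments in WT 1 and 18 in WT 2, at percentiles of 59.5 and 31.7. There 33.5 and 19.4 fragments would be expected, again with 12 and 9 needed. Each of these regions held an AP-1 match, as did 16 of the 45 (35.6%, against 23.7% of all regions in windows of the same length). The opposite order was seen at the shared promoter of Sdhd and Timm8b, 49.0 kb from the Il18 start, where depth-scaled pileups of 79.7 and 83.6 in Mapk8-KO lay above 65 and 72.0 in WT at a log2 difference of -0.30 ± 0.20 (SE, limma adjusted p = 0.594).

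Tslp, whose product drives dendritic cells towards type 2 responses, lies on the plus strand of chromosome 18 from 32815383 to 32819797, inside an intron of 4930455D15Rik. Regions on each side of its TSS were called in all libraries. The upstream one, with a summit 1.2 kb before the TSS and an AP-1 match, had 66 and 39 fragments in the WT libraries and 65 and 33 in the Mapk8-KO libraries. The downstream one, 1.4 kb into the gene, had 55, 31, 54 and 26 in the same order. Both pairs of genotypes overlapped, with log2 differences of 0.11 ± 0.22 and 0.12 ± 0.24 (SE, limma adjusted p = 0.898 and 0.901). A weaker region 19.5 kb downstream of the Tslp start had 42 and 21 fragments in WT and 42 in Mapk8-KO 1, and was not called in Mapk8-KO 2. The highest percentiles of the window, between 64.1 and 75.2, belonged to the promoter of Wdr36 and 4930455D15Rik and not to Tslp.

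Il25 encodes IL-17E, a member of the IL-17 family that drives type 2 responses, and lies on the plus strand of chromosome 14 from 54932695 to 54935837. No region was called within 2 kb of its TSS in any library. The nearest, with a summit 2.6 kb upstream and an AP-1 match, was called in all of them, with 57 and 58 fragments in the WT libraries and 82 and 50 in the Mapk8-KO libraries. Its log2 difference was -0.18 ± 0.20 (SE, limma adjusted p = 0.796). The other regions of the window lay at Efs and Slc22a17, and 2 at Efs were called in all libraries. The one 7.9 kb upstream of Il25 had a log2 difference of 0.02 ± 0.19 (SE, limma adjusted p = 0.985). The one 6.7 kb upstream, at the Efs promoter, had 92 and 69 fragments in WT and 107 and 88 in Mapk8-KO, at a log2 difference of -0.30 ± 0.18 (SE, limma unadjusted p = 0.0969, adjusted p = 0.543), and the adjusted p lay between 0.0933 and 0.933 over the alternatives.

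Il23a lies on the minus strand of chromosome 10 from 128296139 to 128298752. Its promoter region, from 128297954 to 128298444, reaches over the TSS of the coding transcript at 128298084 and held matches to AP-1 and NF-kB close together. It was called in all libraries, with 23 and 20 fragments in the WT libraries and 35 and 18 in the Mapk8-KO libraries, and its percentiles were 54.6, 56.8, 76.0 and 50.1. Mapk8-KO 1 was the highest and Mapk8-KO 2 the lowest, and the log2 difference was -0.25 ± 0.30 (SE, limma adjusted p = 0.805). The other regions of the window were the promoters of Pan2 and Cnpy2, with log2 differences of -0.28 ± 0.24 and -0.20 ± 0.33 (SE, limma adjusted p = 0.702 and 0.873).

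**Figure D3:**
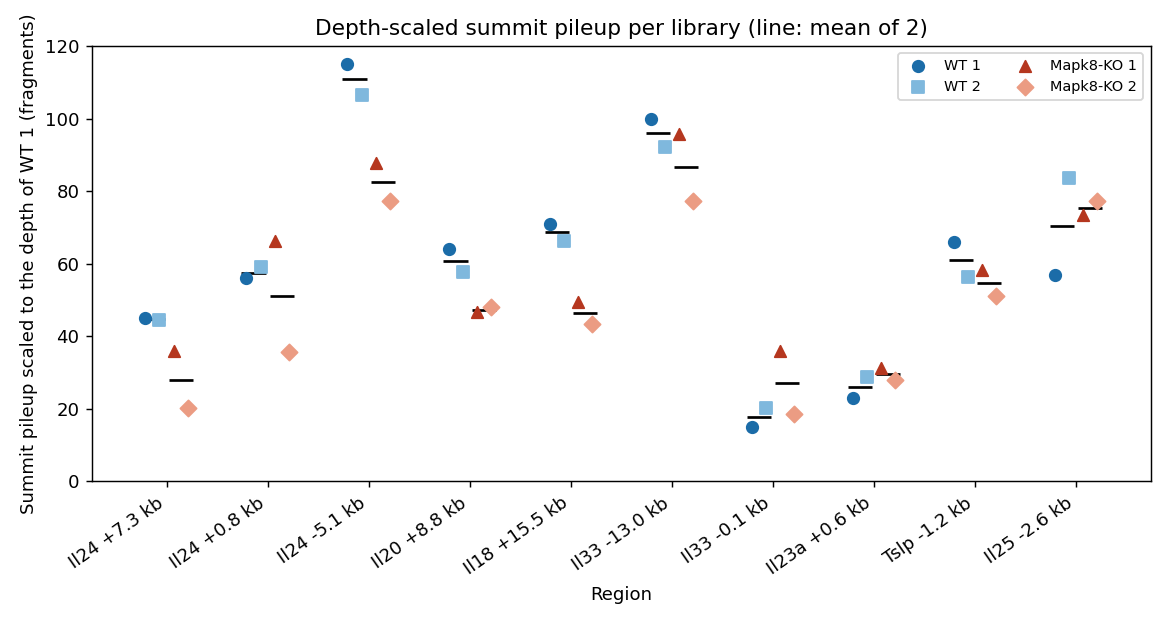
Summit pileup scaled to the depth of WT 1 (fragments, y axis) in each of 4 libraries for 10 regions at the members; points are libraries and lines are means of the 2 libraries of a genotype. WT points lie above both Mapk8-KO points at Il24 +7.3 kb, Il24 -5.1 kb, Il20 +8.8 kb and Il18 +15.5 kb, and overlap them at the other 6 regions.

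Between the TSS regions called in all 4 libraries, that of Il24 had a higher percentile than that of Il23a in each library, and that of Il23a a higher one than the upstream Tslp region in each library. The promoter region of Il33 and the downstream Tslp region changed places between libraries, at 21.3 and 41.4 in WT 1 but 27.4 and 25.5 in WT 2. By the 4 percentiles, the TSS regions of coding genes nearest to that of Il24 among 12054 compared were those of Elp6, Dpy30 and Dock3, within 2.89, 2.93 and 3.65 points in every library. This is a likeness of rank in 4 libraries and nothing more.

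No region of the members passed the test between genotypes. Of the 22 regions tested, 0 had a limma adjusted p under 0.05, against 0.605% of 40159 regions in the same fit (0.496% higher in WT and 0.11% higher in Mapk8-KO), and 3 (13.6%) had an unadjusted p under 0.05, against 11.3%, namely those 7.3 and 5.1 kb from the Il24 start and 15.5 kb from that of Il18. Nor was any ranked at least 10 percentile points higher in WT (against 2.65% of all) or in Mapk8-KO (against 3.78%). Depth-scaled pileup was higher in both WT libraries than in both Mapk8-KO libraries at 5 of 22 (22.7%, against 20.3%) and lower in both at 1 (4.55%, against 20.4%). The 5 were 3 of the IL-20 cluster, 1 within Il18 and the Wdr36 promoter near Tslp. An exact permutation test of a single region with 2 libraries against 2 cannot go below p = 0.33.

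By window, the fitted values were higher in WT at 4 of 4 regions of the IL-20 cluster (median log2 difference 0.34), 3 of 3 at Tslp (0.11), 4 of 7 at Il33 (0.09), 1 of 2 at Il18 (0.11), 1 of 3 at Il25 (-0.18) and 0 of 3 at Il23a (-0.25). A difference between windows was not tested. Over the 22 regions the median was 0.06 and 13 (59.1%) were higher in WT, against a median of -0.05 and 42.6% over all regions. The 10 with an AP-1 match had a median of 0.20 and the 12 without one a median of -0.10, and over all regions the medians were 0.08 and -0.09. In sorted bulk cells, fewer cells with an open region and less opening in each cell cannot be told apart.

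**Figure D4:**
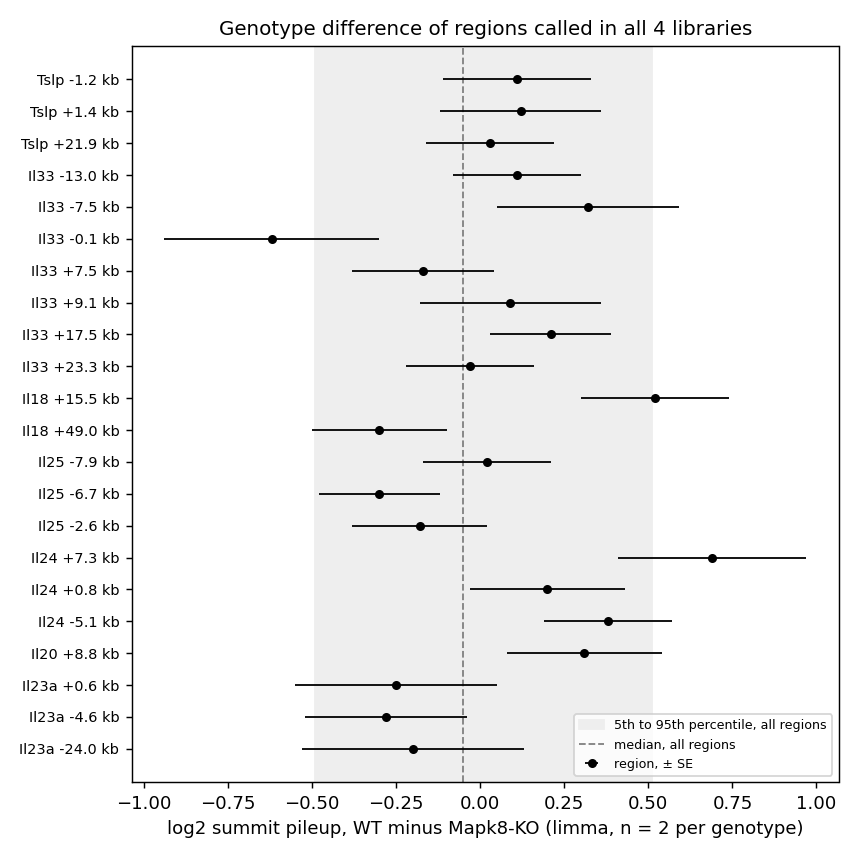
Log2 summit pileup of WT minus Mapk8-KO (x axis) with its SE from limma for the 22 regions called in all 4 libraries, n = 2 libraries per genotype; the grey band spans the 5th to 95th percentile of all 40159 regions and the dashed line is their median of -0.05. All 4 regions of the IL-20 cluster lie to the right of 0, at up to 0.69, and the Il33 promoter lies farthest to the left at -0.62.

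The receptors and processing partners of these cytokines were described by the same windows. At 13 receptor genes, 46 of 86 regions (53.5%, against 48.6% of all regions) were called in all libraries. WT-specific regions numbered 4 (4.65%, against 2.17%), 1 each at Crlf2, Il7r, Il17ra and Il12rb1, and Mapk8-KO-specific regions 0 (against 1.65%). None of the 46 passed limma (against 0.605% of all; lowest adjusted p = 0.409), and 2 had an unadjusted p under 0.05 (against 11.3%). Promoters of 9 receptor genes were open in all libraries, among them all of the IL-20 family receptor chains listed. That of Il22ra1, a chain that pairs with IL-20RB, lay at percentiles of 89.4 and 82.7 in WT and 94.6 and 90.4 in Mapk8-KO. That of Il20rb lay between 16.3 and 30.6 over the libraries, and that of Il20ra at 57.4 and 35.3 in WT and 46.1 and 33.3 in Mapk8-KO. The promoter of Il1rap, the co-receptor of IL-33, lay between 89.5 and 93.4 in all libraries. No promoter region was called at Il1rl1, the IL-33 receptor, nor at Il18rap, Il12rb1 and Il23r.

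Among 6 partner and processing genes, 12 of 18 regions (66.7%, against 48.6% of all regions) were called in all libraries. Of the 12, 0 passed limma (against 0.605%; lowest adjusted p = 0.646) and 0 had an unadjusted p under 0.05 (against 11.3%). The promoter of Casp1, the caspase that matures IL-18, was called in all libraries at percentiles between 66.2 and 77.4. That of Il12b lay at 75.9 and 61.5 in WT and at 55.2 and 27.7 in Mapk8-KO. Of the 18 regions, 1 was WT-specific (5.56%, against 2.17% of all regions), at Gsdmd, which encodes the pore protein gasdermin D. Mapk8-KO-specific regions also numbered 1 (against 1.65%), at Il18bp, the decoy receptor of IL-18. Of the 12, 1 at Gsdmd ranked higher in WT by at least 10 points (against 2.65%). A single region in so few says little about these genes.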

How the data were processed

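Peak lists of 4 ATAC-seq libraries were used. Per the study's methods, the authors aligned paired reads to mm10 with Bowtie2, removed multiply or poorly mapped reads and called peaks with MACS2 in each library separately; the submitters' processing notes also list Trimmomatic 0.36, STAR 2.5.3, Picard and SAMtools without saying their role. No shift for Tn5 cutting is stated. The lists deposited by the authors hold a fold enrichment over background, −log10 p and −log10 q values (q at most 0.0097) and a score derived from them.

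From these values, the whole-number pileup and local background at each summit were solved together, to within 0.05 of a whole number for at least 99.996% of peaks in each list. Total reads are unknown. The lists held 69927 (WT 1), 54856 (WT 2), 69583 (Mapk8-KO 1) and 49856 (Mapk8-KO 2) peaks. Their median pileups were 33, 28, 36 and 26 fragments. Each depth factor was the median, over regions called in every library, of the pileup divided by that in WT 1. The main limma fit did not use these factors, and the alternative with depth from median ratios did. Log2 pileup, centred on the library median, was fitted with limma 3.58.1 (R 4.3.3, variance trend, Benjamini-Hochberg over all 40159 regions called in every library, threshold 0.05). It was tested on simulated data. Genes and TSSs came from GENCODE basic vM21, with promoters within 2 kb, and motifs were searched within 100 bp of the strongest summit.

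Libraries were grouped by their labels. The members, gene lists and motifs were chosen with earlier results of these data known. Regions given in full were those within 2 kb of a member TSS, the genotype-specific ones, those past the rank or limma threshold and the strongest of each window; any other region named was chosen after its values were seen. The authors' test of reads per region was not used here. Sequences of the Tslp locus are not reported here. Window, q, list length, overlap, ranking, normalization, replicate block and libraries were varied.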

Additional observations from a re-analysis of the deposited data

How the results depend on the processing

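Of 71 alternatives over 7 counts, 44 kept the count within 1.5 times and 27 moved it. With a window of 50 kb, 38 regions were called in all libraries and 1 was ranked higher in Mapk8-KO; with a gap of 5 points, with percentiles among regions called in all libraries, or with the replicate block (gap within each pair), 1 was ranked higher in WT. The labels do not say whether same-numbered libraries share a batch, and this was not tested. The replicate 1 minus replicate 2 differences had a correlation between genotypes of r = 0.0392 over 40159 regions. With the replicate block as a term, limma called 386 of all regions and 0 of the members. Over all regions limma called 243, but 0 without a variance trend (3987 at an unadjusted p under 0.05), 0 on fold enrichment (2731), 29 after quantile normalization and 83 with depth from median ratios, a setting chosen after seeing the data; members stayed at 0 under each. Leaving out each library gave 10 to 1590 regions by limma (1590 without Mapk8-KO 1) and 0 to 1 member, 22 to 31 members called in all libraries, 3 to 12 WT-specific, 0 to 3 Mapk8-KO-specific, 0 to 4 ranked higher in WT and 1 to 4 ranked higher in Mapk8-KO. Of the regions a library lacked, pileup alone put 4 of 4 in WT 1, 8 of 11 in WT 2, 6 of 6 in Mapk8-KO 1 and 18 of 21 in Mapk8-KO 2 above the number needed for a call, had they been as open as in the calling libraries. The causes were not tested.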
